A study of Homo sapiens with 24 samples.

Results

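This account covers 202 expressed genes that the Human Transcriptome Array 2.0 measures with many exon junctions. The array carries exon probe sets, which sit inside exons, and junction probe sets, which span the join between exons. A gene was a member if 40 or more junction probe sets were listed under its symbol alone and if the mean of its exon probe sets was above 8 log2 on each of 9 arrays. These 9 are all arrays except the 3 labelled HCT116 replicate 1. The 202 genes are among 22075 symbols in the probe-set table and 16702 genes that had at least 3 probe sets of each kind and were tested. The number of junction probe sets and the exon level chose the members, and the change of junction signal did not.

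The study exposed HCT116, a human colorectal carcinoma line, and its p53-null subline HCT116p53-/- to isoginkgetin. Cells of each line stayed untreated, were given DMSO as vehicle or were given isoginkgetin at 30 µM, and all were collected after 8 h. Each of the 6 groups held 2 arrays from independent experiments. The p53-null subline is a single derivative of HCT116 as far as the labels say, so other differences between the lines cannot be told apart from the loss of p53.

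Splicing removes introns from pre-mRNA and joins the exons in between. An exon probe binds its exon in spliced and unspliced RNA alike, whereas a junction probe binds well only when that pair of exons has been joined. Isoginkgetin, a flavonoid dimer from ginkgo, is known as a small molecule that inhibits the spliceosome. The question put to these genes was therefore whether junction signal was lost relative to exon signal under the drug, and whether it moved by as much between DMSO and untreated cells.

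The measure used is the junction index, the mean log2 value of a gene's junction probe sets minus the mean log2 value of its exon probe sets on the same array. Probe sets differ in their own brightness, so only differences of the index between arrays are read. A set here means the untreated, DMSO and isoginkgetin arrays that share a line and a replicate number, which gives 4 sets of 3 arrays. A gene is counted as lost in a set when its index was lower by more than 0.1 log2, as gained when it was higher by more than 0.1, and as kept otherwise. These counts describe 1 array against 1 array and have no test of their own.

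The arrays labelled HCT116 replicate 1 went against their label. The 7 colon epithelium markers EPCAM, KRT8, KRT18, KRT19, CDH1, CLDN4 and CLDN7 reached mean exon levels of only 3.81 to 5.78 log2 there, against 9.61 to 14.43 in the other 3 sets. Of 5 fibroblast markers, VIM lay at 12.56 log2 against 3.10 to 3.67, FBN1 and THY1 at 7.33 and 7.79 against at most 3.67, and COL1A2 at 4.67 against at most 3.79. COL1A1 was also higher there, at 4.80 against at most 4.14. Both collagens thus lay within the 3.81 to 5.78 log2 that the epithelium markers reached in this set. No cell type is assigned to these arrays. Counts over sets and mean differences are therefore given with and without this set, and their dependence on it is stated as measured. Of the 202 genes, 187 were above 8 log2 on all 3 arrays of this set too; MYO5B, an epithelial vesicle motor, had the lowest mean there at 3.80.

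The members had 40 to 121 junction probe sets (median 46) and 33 to 142 exon probe sets (median 53.5). Together they held 10072 junction and 11575 exon probe sets. Their exon level over the 9 arrays ran from 8.12 to 14.12 log2, with a median of 9.53. Of the 202, RefSeq lists 198 as protein coding. The members just inside the level rule were SNX13, ANXA6 and BIRC6, whose lowest arrays read 8.004, 8.007 and 8.009 log2. ATRX, DST and DLG1 stood just outside with 7.998, 7.996 and 7.981. At the junction rule, 28 members had exactly 40 junction probe sets, and 18 expressed genes had 39. The level rule was applied to treated arrays as well, so a gene near 8 log2 that was lower on a single array is not a member.

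By the mean over probe sets, most of these genes kept their junction signal under isoginkgetin in each set. Against DMSO, 47 were lost, 5 gained and 150 kept in the HCT116 replicate 1 set. In HCT116 replicate 2 the counts were 49 lost, 19 gained and 134 kept. In p53-null replicate 1 they were 20, 34 and 148, and in p53-null replicate 2 they were 12, 30 and 160. Over all genes tested, the share counted as lost was 27.5%, 31.2%, 21.4% and 22.1% in these 4 sets, against 23.3%, 24.3%, 9.90% and 5.94% of the members. The share of all genes counted as gained was 26.3%, 27.2%, 33.3% and 25.0%, and the share kept was 46.2%, 41.6%, 45.3% and 53%. The members' share of lost genes was below that of all genes in each of the 4 sets. Their share of gained genes was below it as well, at 2.48%, 9.41%, 16.8% and 14.9%. In both HCT116 sets more members were lost than gained, while all genes were closer to even. These counts were not tested.

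The count of kept genes depends on how a gene's probe sets are summarised. With the median over probe sets in place of the mean, 59, 51, 60 and 78 of the 202 members were kept in the 4 sets and 82, 81, 55 and 54 were lost. Over all genes 22.8%, 21.4%, 22.7% and 27.9% were then kept and 40.2%, 41.6%, 34.7% and 35.1% lost. For DMSO against untreated cells the median counted 59, 52, 81 and 78 members as lost, which is 29.2%, 25.7%, 40.1% and 38.6% of them against 35.1%, 31.9%, 42.4% and 38.2% of all genes. In the p53-null sets more were lost under the vehicle than under the drug, among the members and among all genes. With only probe sets above 6 log2, the mean kept 147, 126, 143 and 157 members, or 72.8%, 62.4%, 70.8% and 77.7%, against 43.8%, 37.8%, 41.3% and 47.2% of 9184 genes.

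The vehicle comparison also left most members kept, but with more losses in the p53-null sets than in HCT116. It uses the same DMSO arrays with opposite sign, so the comparisons are not independent and their values are only set side by side. From untreated to DMSO cells, 12 members were lost and 18 gained in HCT116 replicate 1, and 6 were lost and 39 gained in HCT116 replicate 2. In p53-null replicate 1, 32 were lost and 16 gained, and in p53-null replicate 2, 21 were lost and 17 gained. The corresponding shares of all genes lost were 21.5%, 17.3%, 32.3% and 25.8%, those gained were 27.9%, 32.2%, 23.7% and 19.0%, and those kept were 50.6%, 50.6%, 44.0% and 55.2%. The members kept numbered 172, 157, 154 and 164. The median index difference of the members under isoginkgetin was −0.022, −0.033, 0.031 and 0.0044 log2 in the 4 sets, and under DMSO it was 0.0012, 0.041, −0.011 and −0.014. Over all genes these medians were −0.002, −0.011, 0.032 and 0.005 for the drug and 0.015, 0.036, −0.022 and −0.018 for the vehicle.

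**Figure D1:**
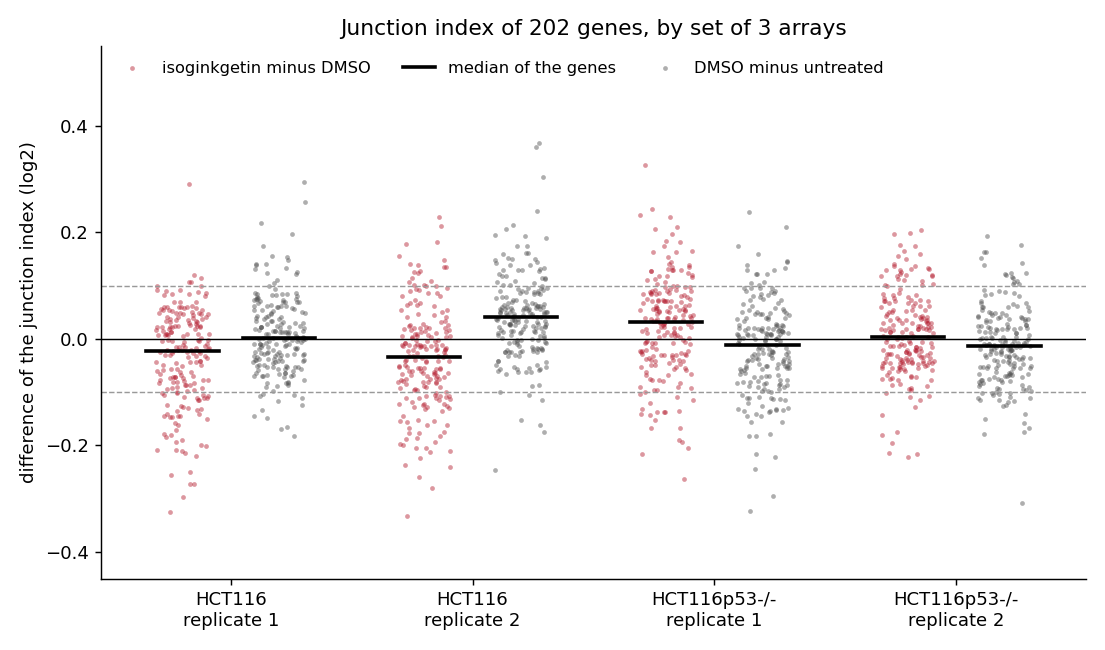
Difference of the junction index (log2, vertical axis) of each of the 202 genes in each set, with isoginkgetin minus DMSO in red and DMSO minus untreated in grey. Black bars are medians and dashed lines mark 0.1 log2 either side of 0; in every set most genes lie between the dashed lines under both comparisons, and the medians lie within 0.05 log2 of 0.

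The choice of control moved the counts most in HCT116 replicate 2. With untreated cells in place of DMSO, 47, 24, 30 and 21 members were lost and 17, 33, 32 and 14 gained in the 4 sets. Over all genes 26.8%, 24.2%, 25.7% and 25.4% were then lost and 30.9%, 33.8%, 28.7% and 21.3% gained. In HCT116 replicate 2 the number lost was thus 24 against untreated cells and 49 against DMSO. Set directly against the vehicle difference of the same gene, the isoginkgetin difference was the lower of the pair in 121, 146, 75 and 93 members. The shares were 59.9%, 72.3%, 37.1% and 46.0% of the members and 53.4%, 57.3%, 42.4% and 45.6% of all genes. In HCT116 more members were below their vehicle difference than above it, and in the p53-null subline fewer.

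Few members moved the same way each time. Over the 3 sets without HCT116 replicate 1, the index was lower under isoginkgetin in all 3 sets in 31 members and higher in all 3 in 30, which is 15.3% and 14.9% of them against 11.9% and 15.2% of all genes. Only 1 member was lost in all 3 sets and 1 was gained in all 3, against 2.22% and 3.02% of all genes. No set showed a loss in 134 members (43.9% of all genes), and 87 were kept in all 3 sets, which is 43.1% of the members and 12.7% of all genes. For DMSO against untreated cells, 24 members were lower and 32 higher in all 3 sets (12.1% and 12.7% of all genes), none was lost (1.93%) or gained (2.0%) in all 3, and 97 were kept in all 3 (15.7% of all genes). With HCT116 replicate 1 included, 23 members were lower and 16 higher under isoginkgetin in all 4 sets (7.23% and 8.69% of all genes), 1 was lost in all 4 (0.988% of all genes) and 68 were kept in all 4 (7.66%). Averaged over the 3 sets, the isoginkgetin difference was within 0.1 log2 of 0 in 185 of the 202 members, below −0.1 in 8 (14.4% of all genes) and above 0.1 in 9 (18.8% of all genes).

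The index scattered less over the members than over expressed genes with fewer junctions. In HCT116 replicate 2 the SD over genes of the isoginkgetin difference was 0.098 log2 for the members, 0.169 for 2766 expressed genes with 10 to 39 junction probe sets and 0.279 for 940 with 3 to 9. In p53-null replicate 1 these SDs were 0.094, 0.152 and 0.264. The scatter was not particular to expressed genes: over 679 genes with 40 or more junction probe sets that were not above 8 log2 on all 9 arrays, the SDs were 0.111 and 0.098. Of these 679 genes, 13.0%, 17.8%, 10.6% and 12.1% were lost in the 4 sets, a smaller share than of the members in HCT116 and a larger one in the p53-null sets. The share counted as lost was higher in the classes with fewer junctions, going from 24.3% to 33.6% to 41.5% in HCT116 replicate 2 and from 9.90% to 14.5% to 21.7% in p53-null replicate 1. The share counted as gained went the same way, at 9.41%, 18.0% and 27.1% and at 16.8%, 33.7% and 45.0%. The number of probe sets averaged moves with the number of junctions, and its part in these shares was not tested. Within the members, 36 of 130 genes with 40 to 49 junction probe sets, 12 of 60 with 50 to 69 and 1 of 12 with 70 or more were lost in HCT116 replicate 2, and 13, 6 and 1 in p53-null replicate 1. The genes gained in p53-null replicate 1 numbered 25, 8 and 1. The shares thus had the same order within the members in the HCT116 replicate 2 losses and the p53-null replicate 1 gains. They lacked that order in the HCT116 replicate 1 losses (33, 11 and 3 genes) and the p53-null replicate 2 gains (23, 5 and 2), and the last class is small. The medians lacked it too: in HCT116 replicate 2 the median difference was −0.032, −0.042 and 0.0041 log2 in these 3 classes. Over the members, Pearson's r between the number of junctions and the mean isoginkgetin difference was 0.078, and between exon level and that difference 0.0036, as descriptions over 202 genes that share the same arrays.

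**Figure D2:**
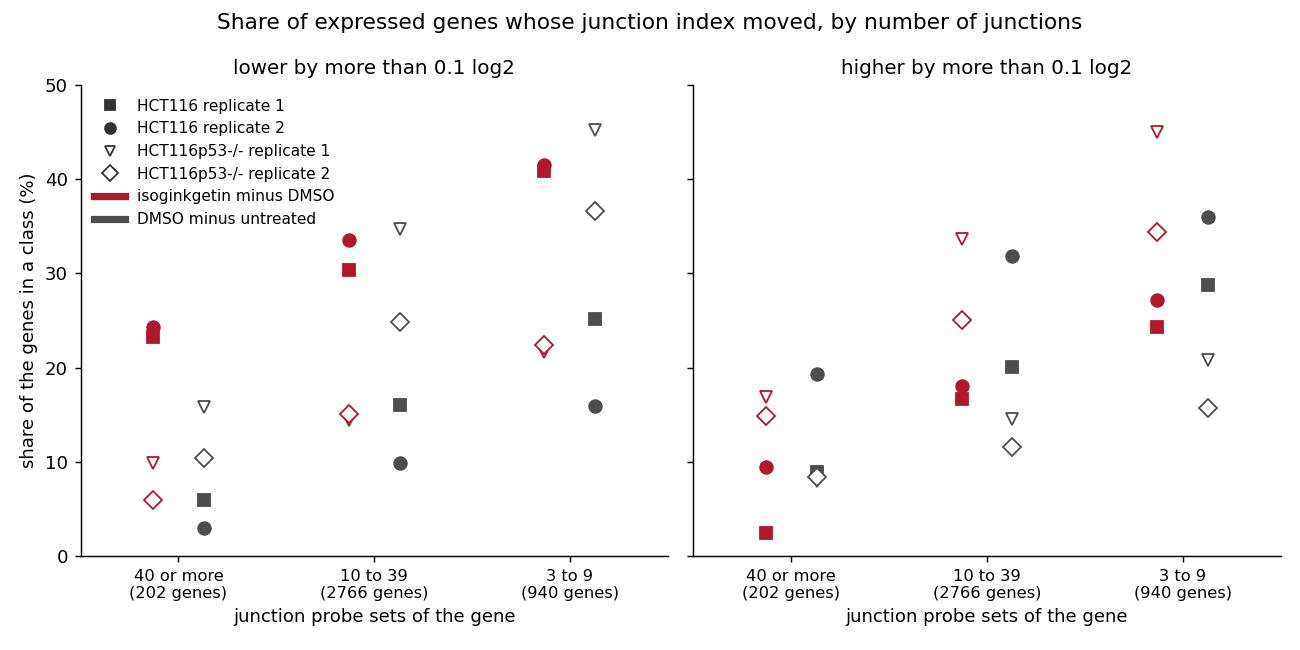
Share of expressed genes (%, vertical axis) whose junction index was lower (left) or higher (right) by more than 0.1 log2, by number of junction probe sets. Each symbol is 1 set, red for isoginkgetin minus DMSO and grey for DMSO minus untreated, filled for HCT116 and open for HCT116p53-/-; the genes with 40 or more junctions have the lowest shares in each set and comparison.

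No member passed the test for a changed junction index. Without a replicate block, limma called 0 of 16702 genes after Benjamini-Hochberg adjustment for isoginkgetin against DMSO over both lines, in either line alone, for the difference between the lines and for the vehicle, with 186, 264 (HCT116), 135 (p53-null), 159 and 102 genes at an unadjusted p under 0.05, none of them a member. With the replicate block, which the p53-null arrays bear out, the calls were again 0 in all 5 comparisons (0.0% of genes). At an unadjusted p under 0.05 this fit held 6 members for the drug over both lines, where it held 1429 of all genes or 8.56%. It held 6 in HCT116 (10.2% of all genes), 4 in the p53-null subline (6.31%), 3 for the difference between the lines (7.56%) and 2 for the vehicle (4.93%). The smallest limma adjusted p among members in these 5 was 0.38. Leaving out HCT116 replicate 1 leaves 1 HCT116 array per treatment, so calls of that fit are not given.

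The intervals of the fit with the replicate block cover the difference averaged over both lines, in which a loss in a single line can be averaged away. They take equal replicate numbers as pairs, which cannot be read from the HCT116 arrays. The 95% intervals of all 202 members lay within 0.5 log2 of 0, and those of 190 within 0.25. The lowest end was −0.32 and the highest 0.27, and the median interval reached 0.126 log2 to each side of its estimate. Of all genes tested, 96.2% had intervals within 0.5 log2 of 0. In HCT116 alone, the block fit gave lower ends of −0.40 for CHD1 and −0.39 for PPFIBP1. The intervals are per gene and not adjusted for the number of genes. Data were also simulated for the comparison over both lines (16702 genes). Set differences and spread came from the block fit, so pairing within both lines was built in. There the block fit recovered 12% of index falls of 0.25 log2, 70% of those of 0.5 and 96% of those of 1. It also made 9 false calls. The fit without the block recovered 0%, 8% and 66% of the same falls, with 0 false calls. The changed genes were drawn from all genes tested, so these shares are not rates for the members. The median SD of the isoginkgetin difference over 3 sets was 0.068 log2 in the members and 0.134 in all genes.

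**Figure D3:**
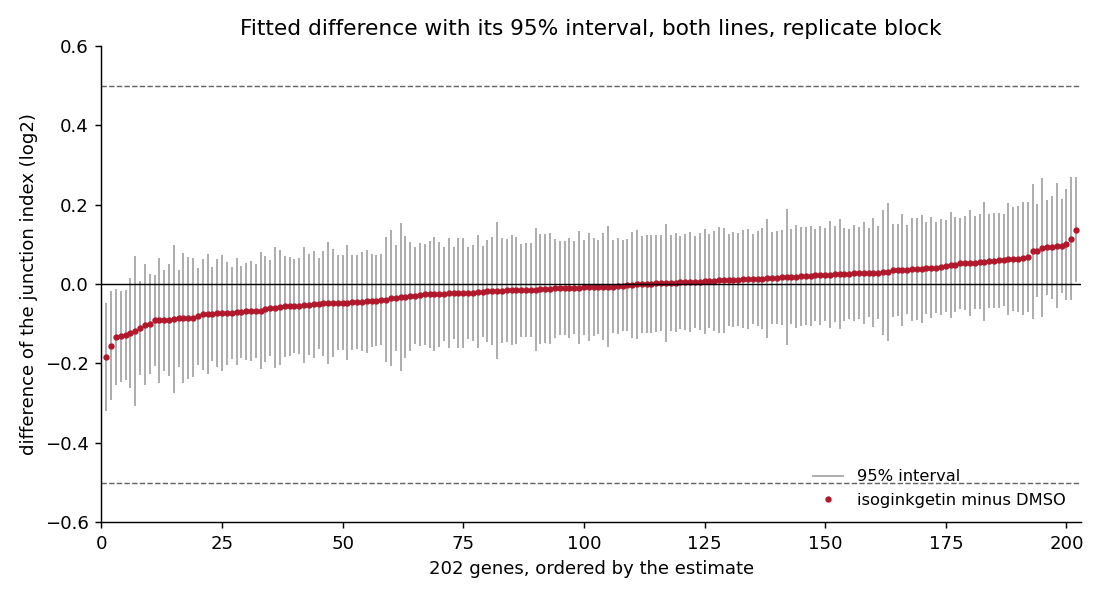
Fitted difference of the junction index, isoginkgetin minus DMSO over both lines with the replicate block (log2, vertical axis), for the 202 genes in order of the estimate. Grey lines are 95% intervals and dashed lines mark 0.5 log2 either side of 0; no interval reaches a dashed line, with ends from −0.32 to 0.27.

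PPFIBP1, which encodes liprin-beta-1, a scaffold protein of the cell cortex, was the only member counted as lost in all 4 sets. In untreated, DMSO and isoginkgetin cells in turn, its index read −0.29, −0.28 and −0.58 log2 in HCT116 replicate 1 and −0.92, −0.85 and −0.95 in HCT116 replicate 2. It read −0.76, −0.67 and −0.81 in p53-null replicate 1 and −0.62, −0.50 and −0.70 in p53-null replicate 2. The isoginkgetin array was the lowest of its set each time, but the groups overlapped across sets, and the DMSO array was the highest of its set each time. The difference from DMSO was −0.30, −0.11, −0.14 and −0.20 log2 in the 4 sets, with a mean of −0.15 ± 0.05 (SD, n = 3 sets without HCT116 replicate 1). The difference from untreated cells averaged −0.051 over these 3 sets. The block fit gave −0.18 with a 95% interval of −0.32 to −0.048 and a limma adjusted p of 0.51. Its largest single junction probe set was lower by 3.13, 0.47, 2.39 and 4.10 log2 relative to the exons, and without it the mean was −0.092. With the median over probe sets in place of the mean, it was −0.052.

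The other members with the largest mean differences below 0, chosen by a rule that asked for the same sign in 3 sets and a difference beyond that of the vehicle in each, were PBRM1, TLN1, TTLL5, MDM2, HYOU1, ABCC1, POLE, PIK3C2A and ITPR3. TLN1, which encodes the integrin linker talin, differed by −0.15, −0.26, −0.092 and −0.034 log2 in the 4 sets. TTLL5, an enzyme that adds glutamate to tubulin, differed by −0.14, −0.20, −0.10 and −0.074. Both were lower in all 4 sets, and with the block their limma adjusted p was 0.56 and 0.54 over both lines and 0.44 and 0.47 in HCT116 alone. PBRM1, a subunit of the PBAF chromatin remodelling complex, differed by −0.18, −0.22 and −0.036 in the 3 sets but by 0.087 in HCT116 replicate 1. Its mean of −0.14 ± 0.09 (SD, n = 3 sets) became 0.105 with the median over probe sets, so its direction depends on the summary, as do those of HYOU1 (−0.081 and 0.134) and ABCC1 (−0.077 and 0.027). MDM2, which encodes the ubiquitin ligase that targets p53, had a mean of −0.12 ± 0.05 (SD, n = 3 sets), and was below 0 in all 4 sets, although its vehicle difference in HCT116 replicate 1 was lower still at −0.18.

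POLE, the catalytic subunit of DNA polymerase epsilon, was lower under isoginkgetin by 0.14, 0.061, 0.062 and 0.11 log2 while DMSO was above untreated by 0.069, 0.049, 0.074 and 0.066. All 4 drug differences thus lay below all 4 vehicle differences, yet the isoginkgetin arrays were close to the untreated ones, with a mean difference of −0.014. ABCC1, a drug efflux pump, showed the same layout, with −0.058, −0.15, −0.053 and −0.026 against 0.15, 0.15, 0.046 and 0.054 for the vehicle. Its mean difference from untreated cells was 0.006. PIK3C2A, a lipid kinase of endocytosis, and ITPR3, a calcium channel of the ER, had means of −0.064 and −0.061. The exon level of ITPR3 was only 5.19 log2 in HCT116 replicate 1. CHD1, a chromatin remodeler named because it was among the lowest unadjusted p values, was lower by 0.20, 0.20, 0.14 and 0.078, while its vehicle difference was lower still in p53-null replicate 2, at −0.10. TMEM131, a membrane protein named for the same reason, was lower by 0.21 in both HCT116 sets and by 0.007 and 0.078 in the p53-null sets.

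**Figure D4:**
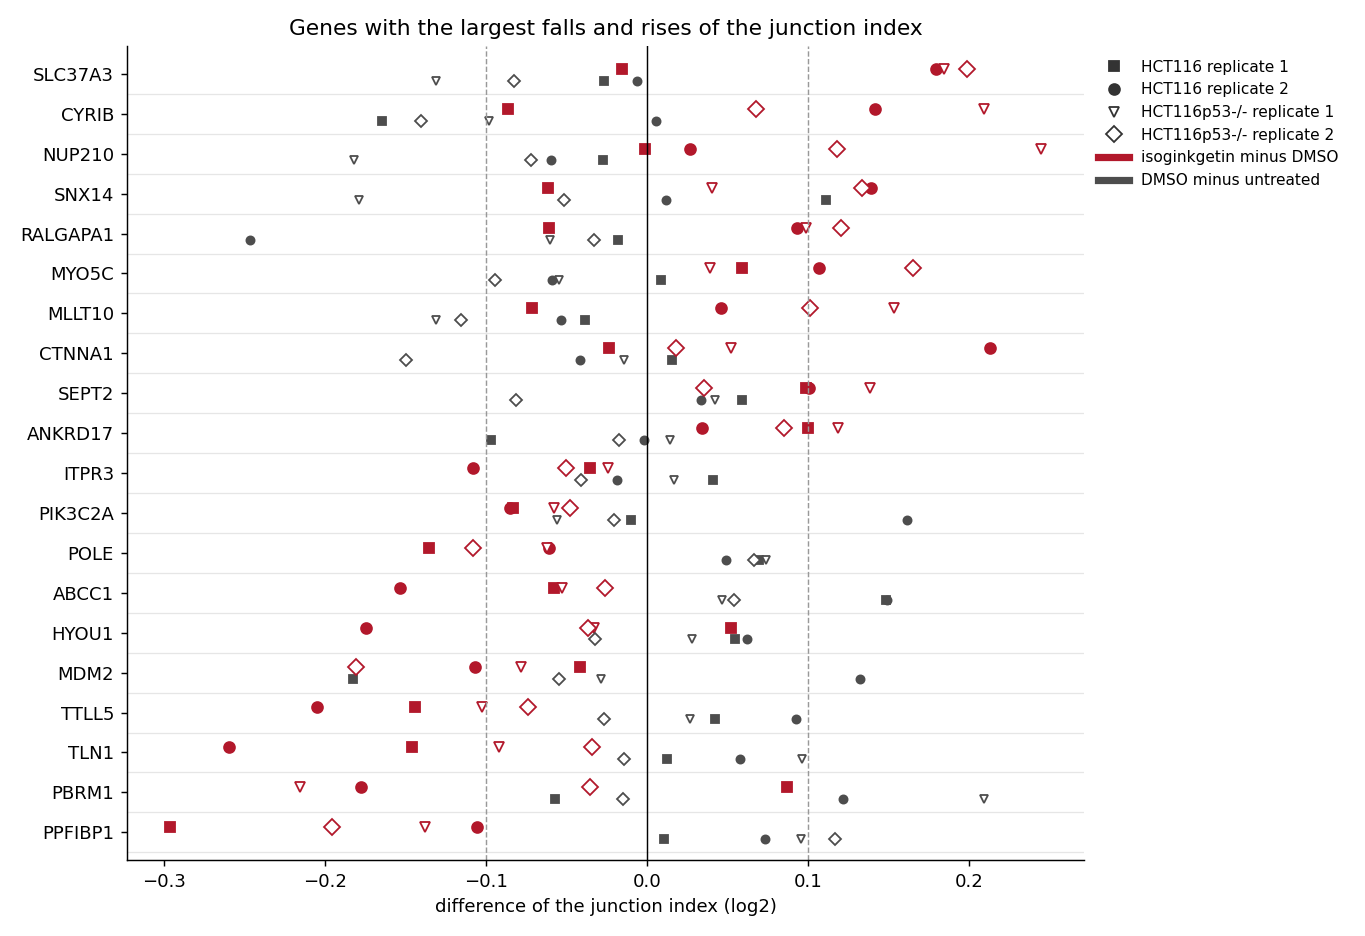
Difference of the junction index (log2, horizontal axis) in each set for the 10 members with the largest mean falls and the 10 with the largest mean rises that met the naming rule, isoginkgetin minus DMSO in red and DMSO minus untreated in grey. Filled symbols are HCT116 and open ones HCT116p53-/-; the naming rule asked for the order of red and grey in 3 sets, and the red squares of HCT116 replicate 1, which it did not use, lie on the other side of 0 in PBRM1, HYOU1 and most of the rises.

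SLC37A3, a member of a family of sugar-phosphate transporters, was the only member counted as gained in all 3 sets without HCT116 replicate 1. In untreated, DMSO and isoginkgetin cells its index read −1.66, −1.67 and −1.49 log2 in HCT116 replicate 2, −1.61, −1.74 and −1.56 in p53-null replicate 1 and −1.55, −1.64 and −1.44 in p53-null replicate 2. In HCT116 replicate 1 it read −1.71, −1.74 and −1.75. The isoginkgetin array was the highest of its set in the first 3 of these sets and the lowest in the last. The differences from DMSO were 0.18, 0.18 and 0.20, with a mean of 0.19 ± 0.01 (SD, n = 3 sets), and −0.016 in HCT116 replicate 1. In HCT116 replicate 2 its junction mean fell from 6.70 in DMSO to 6.55 under isoginkgetin, and its exon mean fell from 8.37 to 8.04. The junction mean went from 6.32 to 6.49 in p53-null replicate 1 and from 6.64 to 6.73 in replicate 2. There the exon mean went from 8.06 to 8.04 and from 8.27 to 8.17. The block fit over 4 sets gave an index difference of 0.14 (95% interval 0.004 to 0.27, limma adjusted p = 0.58). Without HCT116 replicate 1 it gave 0.19. Of its 42 junction probe sets, only 20 were above 6 log2. Relative to the exons, 12 of the 42 were higher in all 3 sets and 1 was lower in all 3. The mean with its largest junction left out was 0.16.

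The remaining 9 members of this kind were CYRIB, NUP210, SNX14, RALGAPA1, MYO5C, MLLT10, CTNNA1, SEPT2 and ANKRD17, with means from 0.079 to 0.14 log2. CYRIB, a regulator of the actin cytoskeleton, differed by 0.14, 0.21 and 0.068 in the 3 sets and by −0.086 in HCT116 replicate 1. NUP210, a membrane protein of the nuclear pore, differed by 0.027, 0.24 and 0.12 and by −0.002 in HCT116 replicate 1. CTNNA1, which links cadherins to actin, owed its mean of 0.094 mostly to HCT116 replicate 2, where it differed by 0.21 against 0.052 and 0.018 in the p53-null sets. ANKRD17, SEPT2 and MYO5C were above 0 in all 4 sets; for ANKRD17 the differences were 0.10, 0.034, 0.12 and 0.085. MYO5C, an epithelial myosin, had a mean exon level of only 5.18 log2 in HCT116 replicate 1. Their smallest limma adjusted p with the block was 0.63 (NUP210), and ANKRD17 was the only 1 of the 10 whose mean had the opposite sign with the median over probe sets, at −0.095.

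The members nearest to 0 were chosen by their mean over 3 sets, which does not ask that a gene was kept in each set. FASN, the fatty acid synthase, had index values of −0.22, −0.18 and −0.22 log2 in untreated, DMSO and isoginkgetin cells of HCT116 replicate 2. Its values were −0.13, −0.17 and −0.10 in p53-null replicate 1, −0.26, −0.14 and −0.17 in p53-null replicate 2, and −0.03, 0.00 and 0.01 in HCT116 replicate 1. Its mean difference was 0.001 ± 0.06 (SD, n = 3 sets), and its 95% interval ran from −0.12 to 0.12. SETD5, a SET-domain protein of chromatin, had an interval of −0.12 to 0.13. CHD8, a chromatin remodeler, averaged 0 only because its sets disagreed, with −0.087 and −0.19 in HCT116 and 0.10 and 0.082 in the p53-null subline.

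Of the 12 members with 70 or more junction probe sets, 3, 1, 1 and 0 were lost in the 4 sets, beside 27.5%, 31.2%, 21.4% and 22.1% of all genes. UBR4, a ubiquitin ligase with 121, differed by −0.10, 0.11, 0.055 and −0.025 log2 in the 4 sets. PTK2, the focal adhesion kinase, with 106, differed by −0.026, −0.0088, 0.054 and 0.094, and its 95% interval was −0.084 to 0.14. ANKRD36C, with 104, differed by 0.087, −0.095, −0.13 and 0.11, but its values are uncertain because near-identical relatives such as ANKRD36B can bind the same probes. BIRC6, a large inhibitor of apoptosis with 78, differed by −0.17, 0.026, 0.17 and 0.12. The first of these values is from the set that went against its label.

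Single junctions scattered far more than gene means. Relative to the exons of their gene, 381 of the 10072 junction probe sets of the members were lower by over 1 log2 under isoginkgetin in HCT116 replicate 1, 480 in HCT116 replicate 2, 298 in p53-null replicate 1 and 215 in p53-null replicate 2. The higher ones numbered 250, 309, 364 and 247, which is 2.48%, 3.07%, 3.61% and 2.45% of the members' junctions against 3.75%, 4.89%, 4.4% and 2.79% of all junctions. Over the 272703 junction probe sets of all genes tested, the lower shares were 3.95%, 5.17%, 3.75% and 2.64%, and the members' were 3.78%, 4.77%, 2.96% and 2.13%. For the vehicle, 181, 197, 337 and 240 junctions of the members were lower by this much (2.64%, 2.68%, 4.6% and 2.51% of all junctions). In all 3 sets without HCT116 replicate 1, 10 junctions were lower and 5 higher under isoginkgetin (0.0594% and 0.0748% of all junctions), and 7 were lower and 5 higher in DMSO than in untreated cells (0.0341% and 0.0561%). Of the 10 lower junctions, 1 of ANKRD36C and 1 of ANKRD36B had identical values on every array, so they are 1 measurement listed under 2 genes.

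Among these junctions, named after their values were seen, 1 of CAST, which encodes the calpain inhibitor calpastatin, read 9.23, 10.28 and 8.32 log2 in untreated, DMSO and isoginkgetin cells of HCT116 replicate 2. It read 10.91, 10.68 and 7.45 in p53-null replicate 1 and 10.29, 9.71 and 7.86 in p53-null replicate 2. The isoginkgetin array was the lowest of each of these sets, and in HCT116 replicate 1, where the untreated array read 2.12 and DMSO 6.92, isoginkgetin read 2.90. A pair of junctions of SMCHD1, a chromatin protein of the inactive X chromosome, and 1 of TMEM131 were also lower by over 1 log2 in the 3 sets. A junction of UGGT1, which checks glycoprotein folding in the ER, had isoginkgetin minus DMSO differences, relative to that of its exons, of 2.76, 1.48 and 1.48. In p53-null replicate 1 it read 4.90, 3.30 and 5.02 in untreated, DMSO and isoginkgetin cells, so that isoginkgetin was close to untreated there. A junction of RALGAPA1, a Ral GTPase-activating protein, read 14.07, 2.48 and 11.63 in HCT116 replicate 2, 11.16, 6.68 and 10.73 in p53-null replicate 1 and 11.34, 6.84 and 12.71 in p53-null replicate 2. Here the DMSO array was the low one in each of these sets, so its rise against DMSO of 9.05, 3.92 and 5.81 was no rise of that size against untreated cells, and without it the gene's mean index difference of 0.10 became −0.02.

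Grouped by function, 100 of the members fell into 12 lists written from general knowledge with earlier results of these data known. Genes of the cytoskeleton and of adhesion (12 members) had a median index difference of −0.027 log2, with 4 lower and 2 higher in all 3 sets. Motors and mitotic genes (12 members) had a median of −0.015, with 1 lower and none higher in all 3. CENPE, a kinetochore motor, differed by −0.083, −0.19 and 0.030 in the 3 sets. Kinases and signalling genes (11 members) had a median of −0.008, with 2 lower and 1 higher in all 3. MAP4K4, a kinase of stress signalling, differed by −0.20, 0.014 and −0.086.

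Genes of splicing itself were among the members as well. The 5 of them had a median of −0.049 log2, from −0.076 to 0.061, with 2 lost in HCT116 replicate 2 (31.2% of all genes) and none lost in the other sets. Over all 52 tested genes of this list, members or not, the median was −0.0041. PRPF8, the core protein of the spliceosome, differed by 0.025, 0.091, 0.026 and 0.067 in the 4 sets. SNRNP200, a helicase that unwinds spliceosomal RNAs, differed by 0.032, −0.19, 0.012 and −0.046. RBM39, a splicing factor, differed by 0.060, −0.22, 0.054 and 0.018, while its vehicle difference in HCT116 replicate 2 was 0.24. Both losses in this list thus came in the same set.

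Genes of the nuclear pore and of transport (9 members) had a median of 0.024 log2, with none lower and 3 higher in all 3 sets. NUP98, a mobile nucleoporin, differed by 0.018, 0.072 and 0.074. Chromatin and transcription genes (14 members) had a median of 0.001, with 1 lower and 1 higher in all 3. SMARCA4, the motor subunit of the BAF complex, differed by 0.025, 0.084 and 0.061. DNA replication and repair genes (8 members) had a median of −0.004, with POLE as the only 1 lower in all 3. Ubiquitin and proteasome genes (11 members) had a median of −0.003, with none lower and 2 higher in all 3. Translation and tRNA synthetase genes (6 members) had a median of −0.028, vesicle genes (5) of −0.014, chaperone and ER genes (3) of 0.055 and metabolic genes (4) of 0.004. Over all 202 members the median of this mean was −0.005, and no member of any list passed the test of the index.

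Exon means, a measure of whole-gene signal, gave calls in the fit with the replicate block where the index gave none. Without the block, limma called 0 exon means for isoginkgetin against DMSO over both lines (30 genes at an unadjusted p under 0.05). With it, 3 members were higher and 21 lower among 988 genes called. These are 1.49% and 10.4% of the members, beside 1.82% and 4.1% of all genes. The members were chosen by exon level and the genes tested were not, so these shares are not like for like. Without HCT116 replicate 1, 7 members were higher (6.35% of all genes) and 46 lower (11.4%) among 2964 called. Leaving out a p53-null set takes the spread from the HCT116 arrays alone, of which replicate 1 went against its label. The number of calls changed with the set left out, and which sets carry them cannot be read from that. With the block and arrays centred on their median, 4 members were higher and 15 lower among 536 higher and 455 lower calls. With the block and the median over probe sets, no member was called among 13.

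HYOU1, a chaperone of the ER that rises in ER stress, had exon means of 12.23, 12.25 and 12.33 log2 in untreated, DMSO and isoginkgetin cells of HCT116 replicate 2. They were 11.78, 11.73 and 12.20 in p53-null replicate 1, 11.93, 11.99 and 12.53 in p53-null replicate 2 and 12.69, 12.64 and 12.76 in HCT116 replicate 1. The isoginkgetin array was the highest of each set, with a fitted rise of 0.30 (SE 0.03, 4 sets, limma adjusted p = 0.014 with the block). Its junction mean differed by 0.44 and 0.50 in the p53-null sets but by −0.097 in HCT116 replicate 2. NUP210 had exon means of 10.08, 9.97 and 10.38 in HCT116 replicate 2, 9.04, 9.05 and 9.24 in p53-null replicate 1 and 9.52, 9.58 and 9.79 in p53-null replicate 2. Its fitted rise was 0.23 (SE 0.05, limma adjusted p = 0.046). EPRS1, which charges tRNAs with glutamate and proline, rose by 0.16 (SE 0.03, limma adjusted p = 0.041).

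The 21 members whose exon mean fell did so by 0.12 to 0.28 log2, and 19 of them were within 0.1 log2 of 0 in their mean index difference. MAP4K3, a kinase of nutrient signalling, differed by −0.35, −0.34, −0.17 and −0.17 in the 4 sets, a fitted −0.26 (SE 0.03, limma adjusted p = 0.013). DIP2B, a DIP2 family protein, had the largest fall of 0.28, and KIF15, a mitotic kinesin, fell by 0.28 as well, with −0.30, −0.19, −0.37 and −0.24 by set. Chromatin and chromosome genes among them were BPTF (−0.22), CHD1 (−0.16) and STAG1, a cohesin subunit (−0.24). PSME4, a proteasome activator, fell by 0.24 and NEDD4L, a ubiquitin ligase, by 0.19. DOCK5, an activator of Rac, SLMAP, a protein of the STRIPAK phosphatase complex, KTN1, a kinesin receptor, and the drug exporter ABCC4 fell by 0.28, 0.26, 0.23 and 0.21. SBNO1, CDC42BPA, SLC37A3, BLTP2, PCNX1, NIN and SPAG9 fell by 0.12 to 0.21. The exceptions in the index were CHD1, which counted as lost on average (−0.14), and SLC37A3, which counted as gained (0.19).

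The median differences of exon and junction means were −0.031 and −0.071 log2 in HCT116 replicate 2, −0.050 and −0.014 in p53-null replicate 1, −0.032 and −0.037 in p53-null replicate 2 and −0.028 and −0.060 in HCT116 replicate 1. Pearson's r between the exon mean difference and the index difference, each averaged over 3 sets, was 0.30 over the 202 genes. The exon mean enters both quantities, and the genes share the same arrays.

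**Figure D5:**
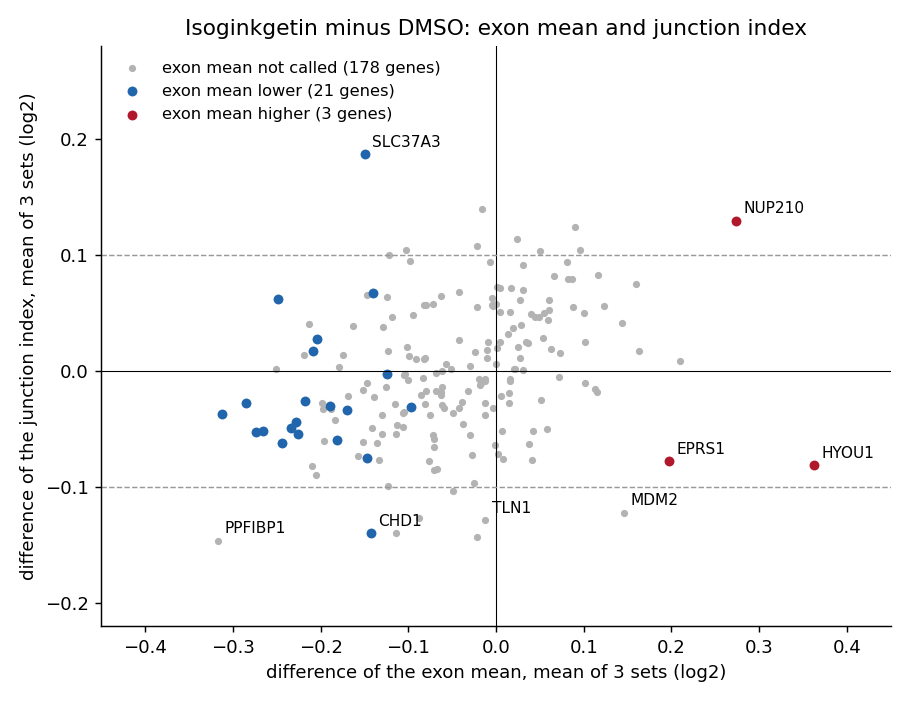
Difference of the exon mean (horizontal axis, log2) and of the junction index (vertical axis, log2) under isoginkgetin, each the mean of the 3 sets without HCT116 replicate 1, for the 202 genes. Blue and red points are the 21 members lower and the 3 higher in exon mean by the fit with the replicate block over 4 sets; most of them lie between the dashed lines at 0.1 log2 either side of 0, with CHD1, SLC37A3 and NUP210 outside.

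The test of the difference between the lines called 0 genes for the index, without and with the block. In counts, 28 members were lower in both HCT116 sets and higher in both p53-null sets (8.64% of all genes), and 4 showed the reverse (5.24% of all genes). For the vehicle, which shares the DMSO arrays, 6 members were lower in both HCT116 sets and higher in both p53-null sets (4.27% of all genes) and 20 the reverse (11.3%). The members with an unadjusted p under 0.05 for the difference were NBPF1, MIA3 and MTR, with limma adjusted p of 0.58 to 0.64. MIA3, which exports collagen from the ER, differed by −0.017 and −0.24 log2 in HCT116 and by 0.33 and 0.16 in the p53-null subline. NBPF1 belongs to a family of near-identical copies and is uncertain.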

How the data were processed

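The deposited values are log2 probe-set values that the authors made in Transcriptome Analysis Console 4.0 with default settings, per the series' design text. No source used here gives the background correction or the summarisation. The table held 573909 exon and 339146 junction probe sets on 12 arrays, and gene symbols came from the platform annotation. Of these, 672085 had 1 symbol, 39483 several and 201487 none listed. Probe sets with 1 symbol and no haplotype identifier were used (645479), and 16 member symbols were updated through RefSeq (GRCh38.p14 gene table). Arrays have no read depth, and their number limits the precision. The gene-level table was not used, and 1 gene is not reported here.

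Exon means, junction means and the junction index were computed per gene and array and tested with limma 3.58.1 in R 4.3.3 on 6 group means, with Benjamini-Hochberg adjustment over 16702 genes and calls at an adjusted p under 0.05. Deviations of the index from the group means were correlated between arrays. Arrays that share a number correlated at 0.54 to 0.56 within the p53-null subline, and arrays of different lines at 0.025 to 0.055 (9 pairs). Within HCT116 the values were 0.83 to 0.86, but replicate 1 of that line went against its label. Pairing of the HCT116 arrays can therefore not be read from them. The main fit was unpaired. The fit with the replicate block, given beside it as an alternative, takes numbers to pair arrays within each line. The design text calls the replicates independent biological experiments. Members, lists and markers were chosen with earlier results of these data known. Named are the 10 largest falls and rises of the index among members that moved the same way in 3 sets and beyond the vehicle, the 3 nearest to 0, the 3 with the most junctions, the 3 on each side of the level threshold, up to 4 per list, and the 20 called members with the smallest adjusted p; other names are said to be chosen after their values were seen or are listed with their unadjusted p. Fits were tested on simulated data with known changes.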

Additional observations from a re-analysis of the deposited data

Results flagged for a closer look

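The median index difference of the 202 members under isoginkgetin lay below 0 in both HCT116 sets (−0.022 and −0.033 log2) and above 0 in both p53-null sets (0.031 and 0.0044). The medians of DMSO minus untreated lay the other way, at 0.0012 and 0.041 in HCT116 and at −0.011 and −0.014 in the p53-null subline. The opposite direction in the lines drew attention to these medians, whose difference was not tested as such. All 16702 genes showed the same signs, with drug medians of −0.002, −0.011, 0.032 and 0.005 and vehicle medians of 0.015, 0.036, −0.022 and −0.018. With arrays centred on their median, the members' median difference between the lines went from −0.043 to −0.014. Both comparisons use the same DMSO arrays with opposite sign, and the arrays labelled HCT116 replicate 1 went against their label.

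CHD8, a chromatin remodeler, had index differences of −0.087 and −0.187 log2 in the HCT116 sets and of 0.103 and 0.082 in the p53-null sets, which is what drew attention to it. PTK2, the focal adhesion kinase, had −0.026 and −0.0088 in HCT116 and 0.054 and 0.094 in the p53-null sets. Its vehicle differences were 0.055, 0.062, −0.077 and −0.106. The index of CHD8 read −0.97, −0.89 and −0.98 in untreated, DMSO and isoginkgetin cells of HCT116 replicate 1. In HCT116 replicate 2 it read −0.74, −0.63 and −0.82. It read −0.60, −0.69 and −0.59 in p53-null replicate 1 and −0.69, −0.79 and −0.71 in replicate 2. For both genes the vehicle difference had the opposite sign in each set, and both comparisons use the same DMSO arrays. The limma test of the difference between the lines called neither.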

How the results depend on the processing

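The share of members counted as lost depended on the margin and on the summary. With a margin of 0.05 log2 it was 39.6%, 45.0%, 19.3% and 19.8% in HCT116 replicates 1 and 2 and p53-null replicates 1 and 2, and with 0.2 log2 it was 6.44%, 4.95%, 1.49% and 1.49%. With the median over probe sets it was 40.6%, 40.1%, 27.2% and 26.7%. With untreated cells as control it was 11.9% in HCT116 replicate 2 and 10.4% in p53-null replicate 2. In p53-null replicate 1 an exon level above 9 gave 5.93%. In p53-null replicate 2, 30 junction probe sets gave 12.1% and probe sets above 6 log2 gave 9.90%.

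The junction index gave 0 calls under the settings run, single arrays left out included (0 in each), except for 1 gene, not a member, with the replicate block and without p53-null replicate 2. Exon means gave 0 calls without the block. The replicate block gave 988, and with it 2964 without HCT116 replicate 1, 1927 without HCT116 replicate 2 and 0 without either p53-null set. Together with the block, and chosen after seeing the data, an intensity trend gave 836, quantile normalization 843, centred arrays 991, the median over probe sets 13 and probe sets above 6 log2 1203. The causes were not tested. The 2 arrays per group limit what could be called. Falls near 0.25 log2 were mostly missed in simulated data, whose changed genes were drawn from all genes tested.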
